A study of Mus musculus with 6 samples.

Results

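The oligodendrocyte lineage was examined through 9 genes picked by name from the 53379 genes of the deposited table. Of these, 6 mark the precursor stage (*Olig1*, *Olig2*, *Pdgfra*, *Cspg4*, *Sox10* and *Nkx2-2*) and 3 the myelin stage (*Mbp*, *Cnp* and *Mag*). The libraries were RNA-seq of mouse neural stem cells (NSCs) derived from the embryonic cortex at E14.5 and expanded in a medium with EGF and bFGF. All cells, controls included, carried both *Tbl1xr1* alleles floxed, with loxP sites around exon 5 of this gene for a subunit of the NCoR/SMRT corepressor complex. The 3 control libraries (replicates 1, 1_1 and 2) came from cells given a lentivirus with GFP alone, and the 3 Cre libraries (replicates 2, 2_2 and 3) from cells given Cre-GFP. Values by library follow this order throughout. The study's results describe sorting of GFP+ cells after infection, without naming the RNA-seq libraries. If the libraries came from sorted cells, infected cells were read in both arms. Whether replicates 1 and 1_1, or 2 and 2_2, came from separate cultures was not given in the sources used here, and the p-values measure only the spread between these libraries, which may be technical.

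Oligodendrocyte precursor cells arise from neural progenitors that switch on the basic helix-loop-helix factors OLIG1 and OLIG2, and then carry the PDGF receptor PDGFRA and the proteoglycan NG2, encoded by *Cspg4*, at their surface. PDGF-AA acting on PDGFRA keeps them dividing. SOX10 and NKX2-2 act in the passage to myelinating oligodendrocytes, which make the myelin proteins MBP, CNP and MAG to wrap axons. NSCs expanded with growth factors can also express *Olig1* and *Olig2* themselves, so that these genes do not by themselves mark a precursor cell.

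In these cells, *Olig2*, *Pdgfra* and *Cspg4* were higher in the libraries labelled Cre, by 1.56-fold to 1.82-fold, while *Olig1*, the most abundant of the 9 genes, did not pass the test. The myelin gene *Cnp* was abundant and did not pass. *Mbp* and *Mag*, and the factors *Sox10* and *Nkx2-2*, were at or close to the floor of detection in both arms. In bulk samples fewer cells of a type and less RNA per cell cannot be told apart. Values are normalized counts, which are reads per gene after division by the size factor of each library, and 1 read was worth 0.693 to 1.46 normalized counts. The test was limma on log2(normalized count + 1) over the 14840 genes with a mean of at least 10, and a gene was called at a Benjamini-Hochberg adjusted p under 0.05.

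The libraries held 7510615 to 14828100 reads on genes, the deepest 3 being those labelled Cre. *Tbl1xr1* itself had 2522, 2190 and 2721 normalized counts in the controls, and 3774, 3463 and 2905 in the libraries labelled Cre. Its transcript showed no fall in the latter (log2 fold change 0.45, SE 0.14, limma adjusted p = 0.06), and it was called higher with DESeq2 and without Cre replicate 3 (adjusted p of down to 0.0234). The study checked the deletion by genotyping, RT-qPCR and Western blot, which were not analysed here. Counts over a whole gene do not measure the loss of exon 5 alone, so that they cannot check the deletion, and the arm is called by its label throughout.

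Of the 9 genes, 6 had an entry in the promoter sequences of RefSeq (GRCm38.p6). Those of the 3 called genes and of *Cnp*, the myelin gene with enough reads to compare with them, are given here as the 250 bases before the transcription start, read from 5′ to 3′ on the strand of the gene. Capitals mark, on either strand, the E-box CANNTG, which OLIG factors and other helix-loop-helix proteins bind, and the letters GGGCGG of the GC box. They also mark the CCAAT box and, as the TATA box, the run TATAAA.
Olig2 (chr16:91225300-91225549, plus strand): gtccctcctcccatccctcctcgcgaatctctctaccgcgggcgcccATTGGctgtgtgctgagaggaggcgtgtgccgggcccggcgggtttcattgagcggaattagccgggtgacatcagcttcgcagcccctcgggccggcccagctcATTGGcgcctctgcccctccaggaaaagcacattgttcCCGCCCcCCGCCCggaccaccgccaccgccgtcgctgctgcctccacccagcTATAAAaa
Pdgfra (chr5:75152001-75152250, plus strand): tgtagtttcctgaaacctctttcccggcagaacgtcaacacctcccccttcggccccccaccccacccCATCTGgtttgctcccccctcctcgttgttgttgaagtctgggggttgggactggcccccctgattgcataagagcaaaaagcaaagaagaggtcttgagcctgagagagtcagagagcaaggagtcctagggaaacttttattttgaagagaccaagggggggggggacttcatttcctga
Cspg4 (chr9:56864854-56865103, plus strand): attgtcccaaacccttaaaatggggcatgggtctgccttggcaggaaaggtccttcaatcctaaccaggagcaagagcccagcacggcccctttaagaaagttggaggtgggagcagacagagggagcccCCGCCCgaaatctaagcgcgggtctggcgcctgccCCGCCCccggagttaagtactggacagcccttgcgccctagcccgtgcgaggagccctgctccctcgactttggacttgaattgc
Cnp (chr11:100574689-100574938, plus strand): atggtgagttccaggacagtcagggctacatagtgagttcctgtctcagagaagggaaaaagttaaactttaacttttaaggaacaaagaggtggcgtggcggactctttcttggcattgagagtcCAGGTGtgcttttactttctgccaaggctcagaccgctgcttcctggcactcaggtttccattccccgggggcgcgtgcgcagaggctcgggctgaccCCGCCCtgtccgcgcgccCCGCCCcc

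The 4 promoters did not look alike in these letters. That of *Olig2* was the richest in G and C, at 66.8% against a median of 52% over 27025 promoters of the same length, and held 2 GC boxes, 2 CCAAT boxes and 1 TATA box, the last of them at its end next to the start site. That of *Cspg4* held 2 GC boxes, as did that of *Cnp*. The E-box letters occurred 1 time before *Pdgfra* and 1 time before *Cnp*, and had no match before *Olig2* or *Cspg4*. Among all promoters, 66% held an E-box, 32.9% a GC box, 34.5% a CCAAT box and 13% a TATA box. A half-site of nuclear receptors, AGGTCA, which 13.8% of promoters hold, had no match in any of the 4. A core that SOX and TCF proteins can bind, ACAAAG, which 16.5% hold, had 1 match, before *Cnp*, and is not in capitals. Motifs were searched on both strands, none of those in capitals overlapped another, and a match is a description of the letters only. The start listed for *Pdgfra* lies inside the span that RefSeq gives the gene (5:75151322-75198206), so that other transcripts of it begin before the stretch shown, and the stretch before *Cnp* likewise runs past the first base of that gene (11:100574909-100591875).

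*Olig2* encodes a factor that specifies the oligodendrocyte lineage. It had 5541, 5556 and 4376 normalized counts in the controls and 7954, 8145 and 9042 in the libraries labelled Cre. The arms did not overlap, with control replicate 2 the lowest and Cre replicate 3 the highest. Mean levels were 5157 ± 677 and 8380 ± 581 (SD, n = 3 each), a 1.63-fold difference on the log2(value + 1) scale (log2 fold change 0.71, SE 0.13, limma adjusted p = 0.00747). This call held in all 16 alternative processings in which the gene was tested again, including each that left out 1 library, with adjusted p-values of 0.000114 to 0.0467.

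*Olig1*, its neighbour and close relative, encodes a second helix-loop-helix factor of the lineage. It had 8387, 6496 and 8734 normalized counts in the controls and 10984, 8330 and 7543 in the libraries labelled Cre. The arms overlapped, since only Cre replicate 2 lay above all controls and Cre replicate 3 lay below control replicates 1 and 2. The log2 fold change was 0.18, with a 95% interval of -0.19 to 0.55 (limma adjusted p = 0.554). *Olig1* (16:91269769-91271939) and *Olig2* (16:91225550-91228677, both GRCm38.p6) lie side by side, with 41091 bases between the end of *Olig2* and the start of *Olig1*.

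The log2 ratio of *Olig2* to *Olig1* within a library was -0.60, -0.23 and -0.997 in the controls and -0.47, -0.03 and 0.26 in the libraries labelled Cre. *Olig2* was thus the more abundant of the pair in 1 library, Cre replicate 3. The mean ratio differed by 0.53 on the log2 scale, the arms overlapped, and an exact permutation test gave p = 0.2 (two-sided, 0.467 adjusted over 7 ratios). The difference between *Olig2*, which passed, and *Olig1*, which did not, was therefore not shown. With 3 libraries per arm this test cannot go below 0.1.

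*Pdgfra*, the receptor of PDGF-AA, had 174, 178 and 133 normalized counts in the controls and 267, 356 and 265 in the libraries labelled Cre. The arms did not overlap, and Cre replicate 2_2 stood above the other two of its arm. Mean levels were 162 ± 24.9 and 296 ± 52.1 (SD, n = 3 each), which is 1.82-fold on the log2(value + 1) scale (log2 fold change 0.86, SE 0.18, limma adjusted p = 0.0136). Without control replicate 2 or without Cre replicate 2_2 the call was lost, with an adjusted p of up to 0.0703 and a log2 fold change that stayed between 0.72 and 0.94 over the alternatives.

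*Cspg4*, the NG2 proteoglycan (9:56865104-56899870), had 265, 237 and 215 normalized counts in the controls and 389, 315 and 418 in the libraries labelled Cre. Again the lowest library labelled Cre, replicate 2_2, lay above the highest control. Mean levels were 239 ± 25.3 and 374 ± 53.2 (SD, n = 3 each), a log2 fold change of 0.64 (SE 0.16, limma adjusted p = 0.0285). This was the least stable of the 3 calls, which passed in 11 of 16 alternatives and was lost, with adjusted p-values of up to 0.121, without control replicate 1, 1_1 or 2, without Cre replicate 3, and with control replicates 1 and 1_1 averaged. The log2 fold change was 0.55 to 0.76 over the alternatives.

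*Nkx2-2* (2:147176485-147195434) and *Sox10* (15:79154913-79164490) encode factors that act as precursors move on to differentiation. *Nkx2-2* had 8, 10 and 5 reads in the controls and 28, 10 and 23 in the libraries labelled Cre, equal to 7.34, 14.6, 6.67, 19.4, 8.61 and 20.6 normalized counts. Control replicate 1_1 lay above Cre replicate 2_2, and the log2 fold change was 0.69 with an interval of -0.40 to 1.79 (limma adjusted p = 0.423). The gene overlaps its antisense RNA *Nkx2-2os*, and with a kit that does not mark strand their reads cannot be told apart.

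*Sox10* had 4, 1 and 2 reads in the controls and 1, 13 and 5 in the libraries labelled Cre, with a mean of 4.03 normalized counts that kept it out of the test. Of the 19 reads in the latter arm, 13 came from Cre replicate 2_2. In RPM (reads per 1000000 reads on genes) this was 0.265 (exact Poisson 95% interval 0.106 to 0.546) against 0.488 (0.294 to 0.762), intervals that cover counting error only and that overlap. In the alternative with no filter on low values its log2 fold change was 0.47, with an interval of -1.10 to 2.05 (limma adjusted p = 0.770), and it became -0.19 without Cre replicate 2_2, so that no difference was detectable at this depth.

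**Figure D1:**
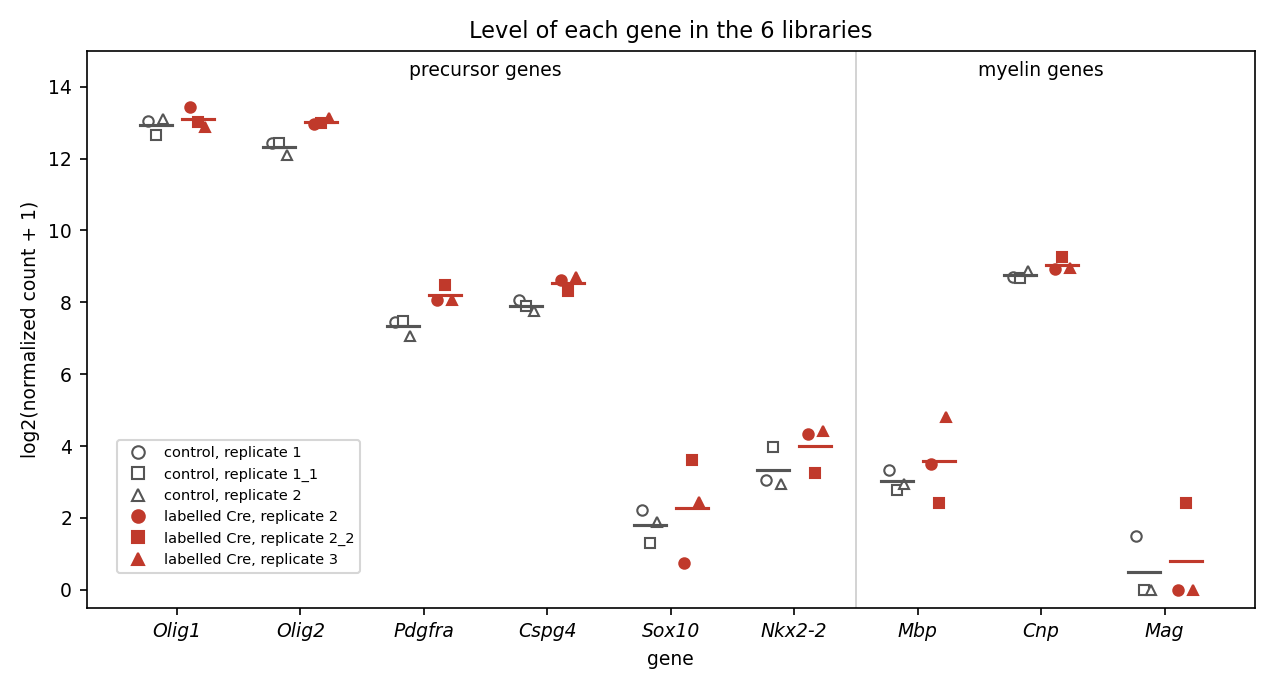
Level of the 9 genes in each library, as log2(normalized count + 1), with open symbols for the control libraries, filled red symbols for the libraries labelled Cre and a bar at the mean of each arm. The arms are apart for *Olig2*, *Pdgfra*, *Cspg4* and *Cnp* and overlap for the other 5 genes, of which *Sox10*, *Nkx2-2*, *Mbp* and *Mag* lie near the floor.

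Among the myelin genes, *Cnp*, which encodes an enzyme of non-compact myelin that is also made in precursors, had 418, 411 and 468 normalized counts in the controls and 485, 611 and 494 in the libraries labelled Cre. The arms did not overlap, but the gap between the highest control and the lowest library labelled Cre was small beside the spread of either. Mean levels were 433 ± 31.0 and 530 ± 70.2 (SD, n = 3 each), and the log2 fold change of 0.29 had an interval of -0.018 to 0.59 (limma adjusted p = 0.225). *Cnp* passed in none of the alternatives, with adjusted p-values of 0.128 to 0.533. It shares 9058 bases of its span with *Dnajc7*, so that without strand part of its reads could belong to that gene.

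*Mbp*, the basic protein of compact myelin, had 10, 4 and 5 reads in the controls and 15, 5 and 30 in the libraries labelled Cre. The mean of 13.9 normalized counts in the latter arm (SD 11.7, against 7.23 ± 1.73 in the controls, n = 3 each) rested on Cre replicate 3. The log2 fold change was 0.55 with an interval of -0.80 to 1.91 (limma adjusted p = 0.630), and became -0.062 without Cre replicate 3. *Mag* (7:30899175-30914922), an adhesion molecule of the inner myelin sheath, had 2 reads in control replicate 1, 5 in Cre replicate 2_2 and 0 in the other 4 libraries, and was not tested. That is 0.0757 RPM (exact Poisson 95% interval 0.00916 to 0.273) against 0.128 RPM (0.0417 to 0.30), which is too few to show a difference.

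*Nkx2-2* and *Mbp* passed the filter on low values only through the libraries labelled Cre, since their control means of 9.55 and 7.23 lay under the minimum of 10. Set side by side, 3 of 6 precursor genes and 0 of 3 myelin genes were called higher and none was called lower, where 4.74% of all tested genes were called higher and 5.22% lower. Every library labelled Cre lay above every control for 4 of the 9 genes, *Olig2*, *Pdgfra*, *Cspg4* and *Cnp*, against 14.7% of all tested genes. These counts do not show a difference between the stages, because only *Cnp* of the myelin genes had enough reads to carry a test.

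**Figure D2:**
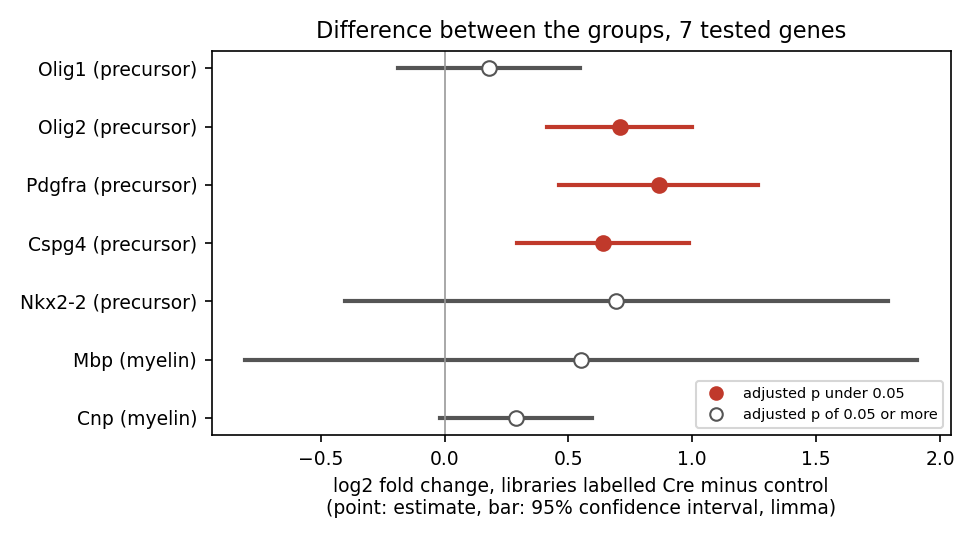
Log2 fold change of the 7 tested genes, libraries labelled Cre minus control, with 95% confidence intervals from limma and filled red points for an adjusted p under 0.05. The intervals of *Olig2*, *Pdgfra* and *Cspg4* lie above 0, that of *Cnp* reaches -0.018, and those of *Nkx2-2* and *Mbp* are the widest.

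Precursor and myelin genes were therefore compared within each library, as the log2 ratio to *Cnp*. *Pdgfra* over *Cnp* was -1.26, -1.20 and -1.80 in the controls and -0.86, -0.78 and -0.90 in the libraries labelled Cre. The arms did not overlap and differed by 0.58, which reached the smallest p that 3 against 3 allows (exact permutation p = 0.1, 0.467 adjusted over 7 ratios). For *Olig2* over *Cnp* the difference was 0.42 (exact permutation p = 0.2, adjusted 0.467) and for *Cspg4* over *Cnp* 0.35 (exact permutation p = 0.3, adjusted 0.525). *Olig1* over *Cnp* differed the other way, by -0.11 (exact permutation p = 0.7, adjusted 0.7). None of these ratios was shown to differ between the arms, and neither were *Pdgfra* over *Olig2* (0.16, exact permutation p = 0.5) and *Cspg4* over *Pdgfra* (-0.22, exact permutation p = 0.6).

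**Figure D3:**
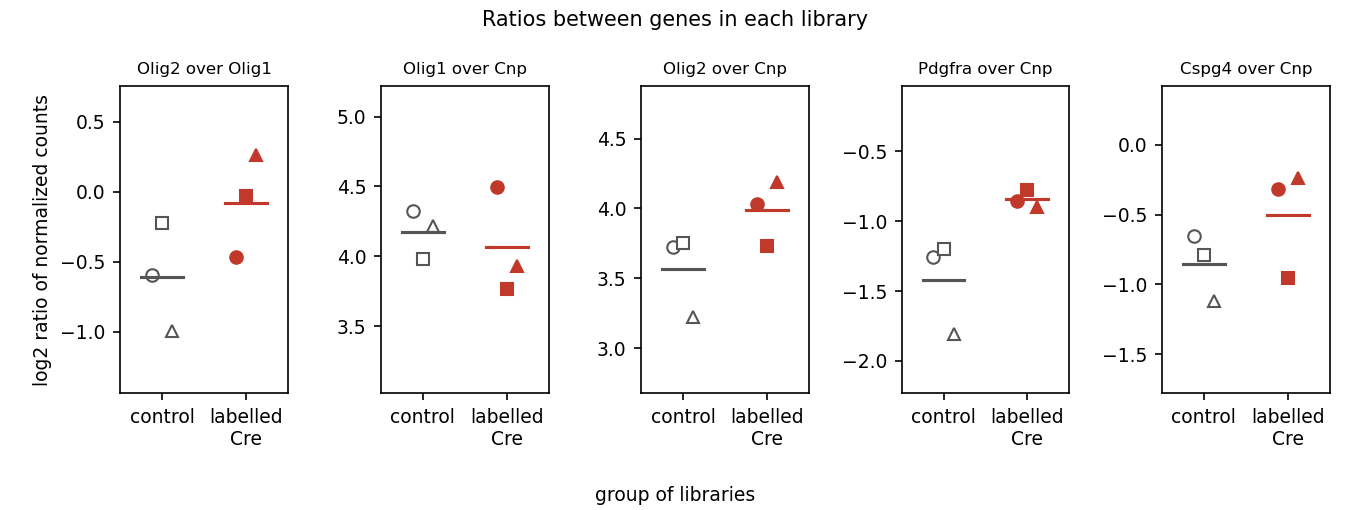
Log2 ratio of normalized counts between pairs of genes in each library, with the control libraries at left and the libraries labelled Cre at right in each panel, a bar at the mean of each arm and the same span on every vertical axis. The arms are apart only for *Pdgfra* over *Cnp*, where the controls run from -1.80 to -1.20 and the libraries labelled Cre from -0.90 to -0.78.

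Levels were compared between genes per kilobase of exon. *Olig1* stood first in both arms, at 3626 ± 555 normalized counts per kilobase in the controls and 4124 ± 830 in the libraries labelled Cre, the 114th highest level of 12913 tested genes with an exon length. *Olig2*, the 173rd, followed at 2116 ± 278 and 3439 ± 238. The 2 genes were apart in the controls and overlapped in the libraries labelled Cre. *Cnp* came next at 119 ± 8.53 and 146 ± 19.3, above the surface genes *Cspg4* (29.7 ± 3.14 and 46.5 ± 6.60) and *Pdgfra* (24.1 ± 3.70 and 44.0 ± 7.73), which overlapped each other in the libraries labelled Cre only. *Nkx2-2* had 3.32 ± 1.54 and 5.63 ± 2.30. *Sox10*, *Mbp* and *Mag* were last, at 0.252 to 0.958 in the controls and 0.591 to 2.01 in the libraries labelled Cre, each overlapping its neighbour in the order (all values are mean ± SD, n = 3).

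The 6 precursor genes together took 1404, 1136 and 1301 RPM in the controls and 1910, 1633 and 1624 RPM in the libraries labelled Cre, nearly all of them from *Olig1* and *Olig2*. The 3 myelin genes took 41.9, 37.9 and 45.9 RPM against 48.3, 59.0 and 48.9, nearly all from *Cnp*. Beside the abundant *Olig* genes, *Sox10*, *Mag* and *Mbp* were near 0 in every library, so that the names precursor and myelin give the stage each gene is known for and not cells found here.

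Other genes of the lineage were read from 6 lists with 67 entries, of which 42 were tested. Called were 13 of them as higher and 2 as lower, against 4.74% and 5.22% of all tested genes. Their median log2 fold change was 0.35, a value that includes *Id4* and *Zfp488*, which passed the filter only through the libraries labelled Cre. Of 14 further transcription factors, 11 were tested and 3 were called, all higher. *Sox6*, which restrains differentiation of precursors, rose from 555 ± 54.1 to 1190 ± 78.8 normalized counts (log2 fold change 1.10, limma adjusted p = 0.000447). *Sox9*, which acts in the switch from neurons to glia, rose from 4272 ± 444 to 8657 ± 1379 (1.01, limma adjusted p = 0.00175). *Myt1*, a zinc finger factor of precursors and neurons, rose from 98.4 ± 4.38 to 155 ± 11.8 (0.65, limma adjusted p = 0.0376), a call lost without control replicate 1, 1_1 or 2, or without Cre replicate 2_2 or 3.

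Inhibitors of oligodendrocyte differentiation held 3 called genes of 7 tested, all higher (4.74% higher and 5.22% lower over all genes). *Id4*, a dominant-negative partner of helix-loop-helix factors, rose from 8.03 ± 1.82 to 92.5 ± 26.5 normalized counts (log2 fold change 3.36, limma adjusted p = 0.00018). Its control mean lay under the minimum of 10, so that it entered the test only through the libraries labelled Cre. Its relative *Id2* (0.44, limma adjusted p = 0.0347) and the Notch ligand *Jag1* (0.56, limma adjusted p = 0.0397) rose less and lost the call in 6 and 5 of 16 alternatives, among them leaving out control replicate 1, control replicate 2 or Cre replicate 2_2 in either case, control replicate 1_1 for *Id2* and Cre replicate 3 for *Jag1*. The other 4 had log2 fold changes of -0.15 to 0.33.

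Among surface and matrix genes of precursors, 4 of 7 tested were called higher and none lower (4.74% and 5.22% over all genes). *Lhfpl3* rose from 139 ± 12.7 to 405 ± 35.8 normalized counts (log2 fold change 1.53, limma adjusted p = 0.000181). *Vcan*, the matrix proteoglycan versican, rose from 619 ± 129 to 1391 ± 175 (1.18, limma adjusted p = 0.00129). *Xylt1*, an enzyme that starts the sugar chains of proteoglycans (0.64, limma adjusted p = 0.0138), and *Ptprz1*, a receptor phosphatase that carries such chains (0.58, limma adjusted p = 0.0191), rose as well, and lost the call in 3 and 6 of 16 alternatives, both of them without control replicate 1_1, control replicate 2 or Cre replicate 2_2, and *Ptprz1* also without control replicate 1. *Cacng4*, named after its values were seen, went the other way, from 463 ± 30.4 to 349 ± 41.3 normalized counts. Its arms did not overlap (log2 fold change -0.41, limma adjusted p = 0.0891), and it was the 1 gene called lower at an adjusted p under 0.1. The 4 untested genes of the list, *Gpr17*, *Matn4*, *C1ql1* and *Neu4*, had means of 0.488 to 3.59 in either arm.

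The ligand of the receptor went the other way. *Pdgfa*, which encodes the chain of PDGF-AA, fell from 264 ± 57.4 to 152 ± 34.0 normalized counts (log2 fold change -0.79, limma adjusted p = 0.0397), a call lost without control replicate 1, control replicate 2 or Cre replicate 3 and with control replicates 1 and 1_1 averaged. *Pdgfc* had a log2 fold change of 0.40 (limma adjusted p = 0.379). *Pdgfb*, *Pdgfd* and *Pdgfrb*, the sister receptor, had no more than 3 reads in any library.

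Early differentiation genes held 0 calls among 4 tested, with log2 fold changes of 0.25 to 0.46. Among them were *Bcas1* (0.25, limma adjusted p = 0.198), *Itpr2* (0.34, limma adjusted p = 0.114) and, named after its values were seen, *Sirt2* (0.46, limma adjusted p = 0.0715). The list summed to 3050 to 3180 normalized counts in the controls and 3640 to 4042 in the libraries labelled Cre, which did not overlap. It held 1 gene called higher without Cre replicate 2, without Cre replicate 3 or at an adjusted p under 0.1. Of 22 further myelin genes, 11 were tested, 3 were called higher and 1 lower (4.74% and 5.22% over all genes). *Gjc3*, a connexin of glia, rose from 649 ± 78.2 to 3753 ± 1140 normalized counts (log2 fold change 2.49, limma adjusted p = 3.07e-05). *Trf*, which encodes the iron carrier transferrin, fell from 1861 ± 30.2 to 401 ± 35.1 (-2.22, limma adjusted p = 1.64e-06). *Omg*, a surface protein of oligodendrocytes and neurons (1.19, limma adjusted p = 0.0385), and *Galc*, a lysosomal enzyme that breaks down a myelin lipid (0.57, limma adjusted p = 0.014), rose, and lost the call in 7 of 15 and 5 of 16 alternatives, both of them without control replicate 1, control replicate 2 or Cre replicate 2_2, *Omg* also without Cre replicate 3 and *Galc* without control replicate 1_1.

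The members of the myelin list that moved are not structural proteins of compact myelin. *Mobp*, *Ermn*, *Fa2h*, *Gal3st1* and *Hapln2* had no more than 3 reads in any library.

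**Figure D4:**
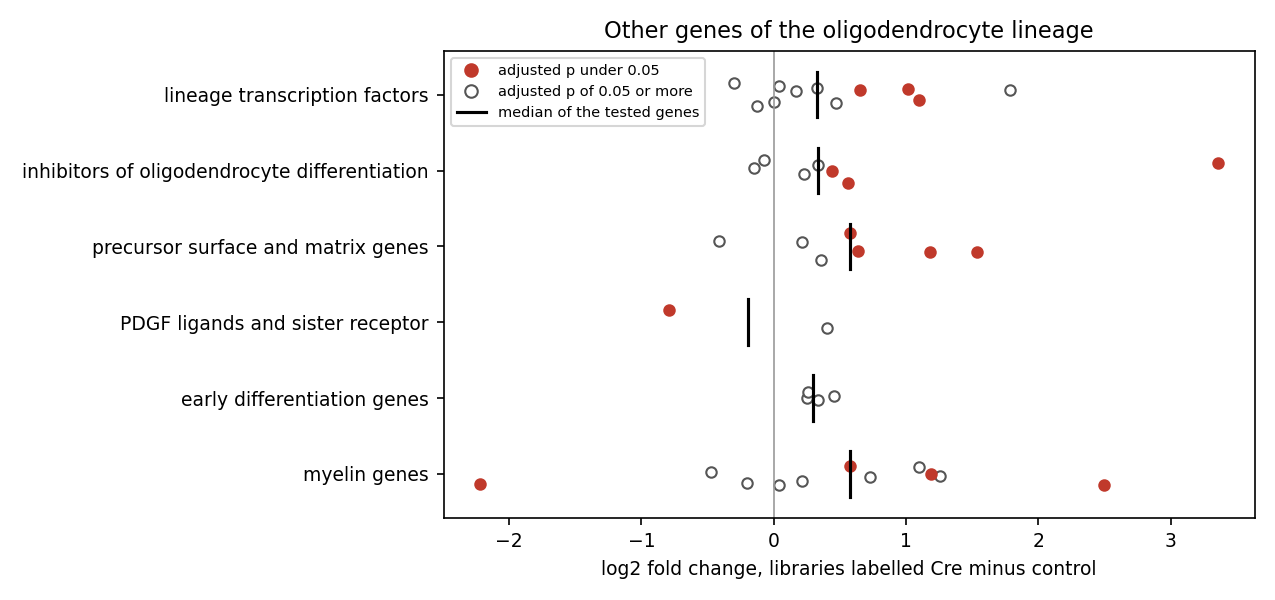
Log2 fold change, libraries labelled Cre minus control, of the 42 tested genes of 6 further lists of the oligodendrocyte lineage, filled red for an adjusted p under 0.05, with the median of each list as a vertical bar. Calls to the right are *Sox6*, *Sox9*, *Myt1*, *Id4*, *Id2*, *Jag1*, *Lhfpl3*, *Vcan*, *Xylt1*, *Ptprz1*, *Gjc3*, *Omg* and *Galc*, and those to the left are *Pdgfa* and *Trf*.

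Several of these genes are not particular to the oligodendrocyte lineage, and markers of astrocytes moved with them. Of 12 astrocyte markers 11 were tested, 6 were called higher and none lower (4.74% and 5.22% over all genes), and their summed level was 13602 to 15161 normalized counts in the controls and 21935 to 25972 in the libraries labelled Cre. Of these, *S100b* rose from 238 to 2064 normalized counts (log2 fold change 3.10, limma adjusted p = 7.39e-07) and *Aqp4*, the water channel of astrocytes, from 11.5 to 38.9 (1.64, limma adjusted p = 0.0228, lost without control replicate 1, control replicate 1_1 or Cre replicate 2_2), while the abundant *Slc1a3* did not pass (0.29, limma adjusted p = 0.126). *Aldh1l1*, an enzyme of astrocytes named after its values were seen, went the other way, with 17.3 and 5.35 normalized counts and arms that did not overlap (log2 fold change -1.65, limma adjusted p = 0.065). Without Cre replicate 2 the list held 7 genes called higher and 1 lower. *Sox9* is in both lists. The summed level came mostly from *Sox9* (4272 and 8657 normalized counts) and *Slc1a3* (6060 and 7408). *Gfap*, untested and named after its values were seen, had 0, 1 and 3 reads in the controls and 3, 12 and 2 in the libraries labelled Cre. The part of the astrocyte markers in the values of *Olig2*, *Pdgfra* and *Cspg4* was not tested.

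*Pdgfra* and *Cspg4* are also expressed by fibroblasts and mural cells. Of 13 markers of those cells, 2 were tested and none was called, the summed level of 57.3 to 65.1 normalized counts in the libraries labelled Cre lay within that of the controls (42.4 to 72.5), and *Pdgfrb*, *Kcnj8*, *Anpep*, *Col1a2*, *Col3a1* and *Dcn* had no more than 3 reads in any library. The 2 tested, *Cd248* and *Tagln*, made up most of that sum and had opposite log2 fold changes of -0.90 and 0.82 (limma adjusted p = 0.142 and 0.357). *Col1a1* and *Lum*, untested, were named after their values were seen. *Col1a1* had 0 reads in each control and 0, 9 and 7 in the libraries labelled Cre, and *Lum* had 1, 4 and 3 against 1, 6 and 15.

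*Sox10* also marks Schwann cells and the neural crest, whose factors *Foxd3* and *Tfap2a* were at 3 reads or fewer. Of these 9 markers 4 were tested, none was called higher and 1 lower (4.74% and 5.22% over all genes). The call was *Gap43*, a growth cone protein that neurons and stem cells also make (8711 to 5196 normalized counts, log2 fold change -0.76, limma adjusted p = 0.00975, lost without control replicate 2). *Egr2*, a factor of myelinating Schwann cells that growth factors also induce, named after its values were seen, had 18.5 and 54.4 normalized counts with overlapping arms (1.36, limma adjusted p = 0.0876), and 1 marker of the list was called higher with DESeq2 or without Cre replicate 3. *Gap43* made up most of the summed level of 8534 to 9404 in the controls and 4309 to 6269 in the libraries labelled Cre.

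Of 9 microglial markers 7 had no more than 3 reads in any library, and the summed level of 164 to 206 in the controls and 168 to 274 in the libraries labelled Cre came mostly from *Csf1r*, with 183 and 222 normalized counts (log2 fold change 0.25, limma adjusted p = 0.483). The 8 endothelial markers summed to 32.0 to 49.7 and 15.2 to 30.5, with 1 tested and none called (*Kdr*, -1.34, limma adjusted p = 0.0677). Of 12 neuronal markers 6 were tested and none was called, and 5 of them, *Stmn2*, *Gad2*, *Slc17a7*, *Slc17a6* and *Nefl*, were at 3 reads or fewer. Their sum of 9348 to 9573 in the controls and 10175 to 11450 in the libraries labelled Cre came mostly from *Map2* (0.19, limma adjusted p = 0.337). Of the 6 tested, 3 had positive log2 fold changes. *Dcx*, a neuronal marker too low for the test and named after its values were seen, had 9.50 and 3.15 normalized counts. Its arms did not overlap in normalized counts, with 10, 5 and 9 reads in the controls and 6, 2 and 4 in the libraries labelled Cre.

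Ventral progenitors are the first source of precursors in the embryonic forebrain. Of their 10 markers, *Nkx2-1*, *Gsx1*, *Gsx2*, *Dlx5*, *Lhx6* and *Lhx8* were at 3 reads or fewer in every library, and the sum was 1106 to 1150 normalized counts in the controls and 692 to 937 in the libraries labelled Cre. Only 2 of the 10 were tested, of which 1 was called lower and none higher. *Dlx1* fell from 255 to 7.32 normalized counts (log2 fold change -5.60, limma adjusted p = 0.00133). Cre replicate 2 had 0 reads of it, and without that library the log2 fold change was -4.41. *Dlx2*, untested and named after its values were seen, had 13, 3 and 8 reads in the controls and 1, 0 and 0 in the libraries labelled Cre. The ventral list held 2 genes called lower with no filter on low values. None of the 3 tested of 8 dorsal markers was called (sum 821 to 955 and 789 to 941), among them *Emx2* (-0.38, limma adjusted p = 0.198) and *Pax6* (0.24, limma adjusted p = 0.295). *Emx2* was called lower without Cre replicate 2. *Neurog2* and *Eomes*, factors of cortical neurogenesis named after their values were seen, were too low for the test, with 0 reads in each control against 7, 23 and 22 for *Neurog2*, and 0, 1 and 0 against 13, 12 and 14 for *Eomes*. With no filter on low values, 2 dorsal markers were called higher. All 11 markers of neural stem cells were tested, and 2 were called lower and none higher (5.22% and 4.74% over all genes). The calls were *Nes* (-0.85, limma adjusted p = 0.00384) and *Sox1* (913 to 191 normalized counts, -2.27, limma adjusted p = 3.66e-05). *Sox2* (0.38, limma adjusted p = 0.259) and *Vim* (-0.34, limma adjusted p = 0.105) did not pass. Of the 11 markers, 6 had positive log2 fold changes (median 0.031), and the summed levels of the list overlapped, at 35707 to 39073 and 34755 to 36547. The part of any of these lists in the values of the 9 genes was not tested.

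The pattern of *Olig2* over the 6 libraries was compared with that of the 11134 other genes with a mean of at least 50, by the root mean square difference of log2(normalized count + 1) about the mean of each gene. The nearest were *Dner* (0.0688), *Ikbip* (0.0704) and *Prps2* (0.0731). *Cspg4* was the 50th nearest (0.124) and *Pdgfra* the 275th (0.188), while *Cnp* was 1842nd and *Olig1*, the gene next to it, 4625th (0.405). The nearest to *Pdgfra* were *Gm973* (0.0957), *Garem1* (0.0964) and *Kiz* (0.103), with *Olig2* 59th, *Cspg4* 573rd and *Olig1* 4402nd. These ranks describe 6 libraries that share their arms, and carry no test.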

How the data were processed

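RNA-seq values of 3 control and 3 Cre-labelled libraries of *Tbl1xr1* flox/flox NSCs were analysed. The deposited table holds a signal, normalized counts that the authors made with DESeq2 by dividing the reads of each gene by a size factor. The submitters' notes name STAR 2.7 and mm10 and the study's methods TopHat with mm9 and mm10, and the version of DESeq2 was not given in the sources used here. All values came out as whole reads (tolerance 0.001), which gave the depth of each library. The authors' fold changes, standard errors and p-values, which fill the other columns, were not used. *Srpk3*, with 1 missing value, was left out.

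Genes with a mean of at least 10 were tested with limma 3.58.1 (R 4.3.3, trend) on log2(normalized count + 1), a scale that understates the change of low genes. Alternatives were a count model on those whole reads (edgeR 4.0.16, DESeq2 1.42.0), a pseudocount of 0.5 or 5, no filter or a mean of 50, TMM or total count scaling, averaged libraries of one number, each library left out and an adjusted p under 0.1. The fits were tested on simulated data. Ratios were compared with exact permutation tests (scipy 1.17.1). Coordinates and promoters are from RefSeq (GRCm38.p6) and exon lengths from GENCODE M1 (mm9), a different build from that of the reads.

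The 9 genes and all lists were chosen with earlier results of these data known. Named were all 9 members, up to 4 called genes of each lineage list with the largest change (or the 2 most abundant where none was called), up to 2 called and the 2 most abundant of each marker list, and the 3 genes nearest in pattern to *Olig2* and to *Pdgfra*. Genes at 3 reads or fewer are named by list. Some genes that this rule names are not reported here.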

Additional observations from a re-analysis of the deposited data

How the results depend on the processing

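The call of *Olig2* held in every alternative that tested it, those of *Pdgfra* and *Cspg4* in 14 and 11 of 16, and *Olig1*, *Cnp*, *Nkx2-2* and *Mbp* passed in none. Of the 9 genes, from 1 (without control replicate 2) to 3 were called with 1 library left out. Over all genes the 1478 calls became 660 with control replicates 1 and 1_1 averaged, 2380 at an adjusted p under 0.1, and 558 (without control replicate 1) to 2396 (without Cre replicate 2) with 1 library left out, while edgeR gave 1483 and DESeq2 1755. The 15 calls among other lineage genes became 8 with control replicates 1 and 1_1 averaged and 7 (without control replicate 2) to 17 (without Cre replicate 2) with 1 library left out. They were 8 without control replicate 1 and 8 without Cre replicate 2_2. Signs turned without Cre replicate 3 for *Mbp* (from -0.062 to 1.13 with 1 library left out) and *Gad1* (from -0.33 to 0.030), neither of which passed, and without Cre replicate 2_2 for the untested *Sox10* (-0.19) and *Mag* (-0.50). The causes were not tested, and each left-out library also leaves fewer samples. The median log2 fold change of all genes stayed between -0.014 and 0.018 in every alternative. Fewer than 30 reads per library for *Sox10*, *Nkx2-2* and *Mag*, and 30 or fewer for *Mbp*, limit what these genes can show. No paired analysis was possible because the arms share 1 replicate number only.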
